A study of Mus musculus with 5 samples.

Results

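The genes described here are 7 regulators of the osteoclast lineage and of cell fusion, namely Tnfrsf11a, Nfatc1, Mitf, Prdm1, Bcl6, Dcstamp and Ocstamp. They were chosen by name for their known roles, and all 7 are among the 16003 genes with an expression value, of 21990 genes listed. The RNA came from RAW264.7, a cell line of mouse monocytes/macrophages whose cells become osteoclast-like under RANK ligand. The CD137 cells carried Renilla luciferase and mouse Cd137, and the control cells carried Renilla luciferase without Cd137, so luciferase is common to both groups. The labels name no treatment with RANK ligand, and they give neither the promoter that drives Cd137 nor whether the cells are 1 clone or a pool. CD137, the product of Tnfrsf9, is a tumour necrosis factor receptor family member that co-stimulates T cells, and the study asked how it bears on migration and osteoclast differentiation of monocytes and macrophages. The series has 5 samples, 3 CD137 and 2 control, and the values used here come from CD137 replicates 2 and 3 and control replicate 2.

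Osteoclasts are multinucleated, bone-resorbing cells that form by fusion of monocyte/macrophage precursors. RANK ligand binds its receptor RANK, adaptor proteins and calcium signals then activate the transcription factor NFATc1, and NFATc1 acts together with AP-1, NF-kB and MITF proteins to turn on fusion and resorption genes. Repressors such as BCL6 hold these genes back in precursors, and Blimp-1, the product of Prdm1, represses those repressors during differentiation.

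Expression was given as FPKM, the fragments per kilobase of transcript scaled to the fragments mapped in a library, so that levels of different genes can be set side by side. The number of fragments behind a value (reads or read pairs, since the sources used here do not say which was counted) was solved from the p-values the authors deposited. The depth of CD137 replicates 2 and 3 was 0.983 and 0.988 of that of the control. Over the 14666 genes that could be solved, the fragments summed to 10635118 and 10688912 in the CD137 libraries and 10782536 in the control library. Tnfrsf9, the introduced gene, was at 364 and 370 FPKM in the CD137 libraries, against 5.06 FPKM in the control library. Macrophage identity was present in all 3 libraries, with 9 of 10 marker genes at 1 FPKM or more and Csf1r, the receptor for macrophage colony-stimulating factor, at 339.9 and 345 FPKM in CD137 cells against 444 FPKM in control cells. The 10 macrophage markers summed to 1964 and 2012 FPKM in CD137 cells and 3122 FPKM in control cells, most of the gap lying in Lyz2, at 646 and 669 FPKM in CD137 cells against 1693 FPKM in control cells. Without Lyz2 the sums were 1318 and 1343 FPKM in CD137 cells against 1429 FPKM in control cells. Of the 9 expressed markers 5 were higher in both CD137 libraries, Adgre1, Fcgr1, Itgam, Ptprc and Spi1, and 4 were lower. Fcgr1, for example, was at 89.9 and 95.2 FPKM in CD137 cells against 45.2 FPKM in control cells. Of 6 markers of mature osteoclasts, 2 reached 1 FPKM in some library and Calcr had no value, and their sum was 10.8 and 10.9 FPKM in CD137 cells against 3.61 FPKM in control cells. The 4 epithelial markers Epcam, Krt8, Krt18 and Cdh1 summed to 6.28 FPKM in CD137 replicate 2, 1.17 FPKM in CD137 replicate 3 and 0.67 FPKM in the control library, so CD137 replicate 2 stood apart in them. The summed markers of B cells, T cells, dendritic cells, melanocytes and osteoblasts ranged between 0.54 and 5.21 FPKM in every library. Ms4a1, Cd3e, Dct and Bglap, markers of B cells, T cells, melanocytes and osteoblasts, were at 0 or had no value. Other markers were expressed. Lck, a T cell marker, was at 4.59 and 4.28 FPKM in CD137 cells against 3.16 FPKM in control cells. Runx2, an osteoblast marker, was at 2.69 and 3.13 FPKM in CD137 cells against 3.9 FPKM in control cells. The B cell markers Sdc1 and Cd79b and the dendritic cell marker Zbtb46 also reached 1 FPKM in some library, and no melanocyte marker did.

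In CD137 cells the transcripts of 3 regulators were lower than in control cells, those of Nfatc1, Mitf and Bcl6, while Dcstamp, the fusion receptor, was higher. Tnfrsf11a, which encodes RANK, was slightly lower without passing the test, and Ocstamp and Prdm1 were close to undetected. A gene is said to have risen or fallen where its Benjamini-Hochberg adjusted p was under 0.05 in limma, a linear model with a spread shared across genes, fitted to log2(FPKM + 1) of the 10720 genes that reached 1 FPKM in any library. Of the 7 genes, 5 entered that fit, and 4 passed, 3 of them lower and 1 higher. Over all genes fitted, 42.6% passed, 24.4% higher and 18.2% lower in CD137 cells, so the passing of a single gene is common in this comparison and its size has to be read beside it. The median absolute log2 fold change over all genes fitted was 0.19. The labels leave unsaid whether the CD137 libraries are of separate cultures, and there is 1 control library, so the p-values rest on the difference between both CD137 libraries, moderated over all genes, which may be technical. The control has no spread of its own. When all 16003 genes were fitted instead, no gene passed the adjusted threshold and 5281 had an unadjusted p under 0.05.

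**Figure D1:**
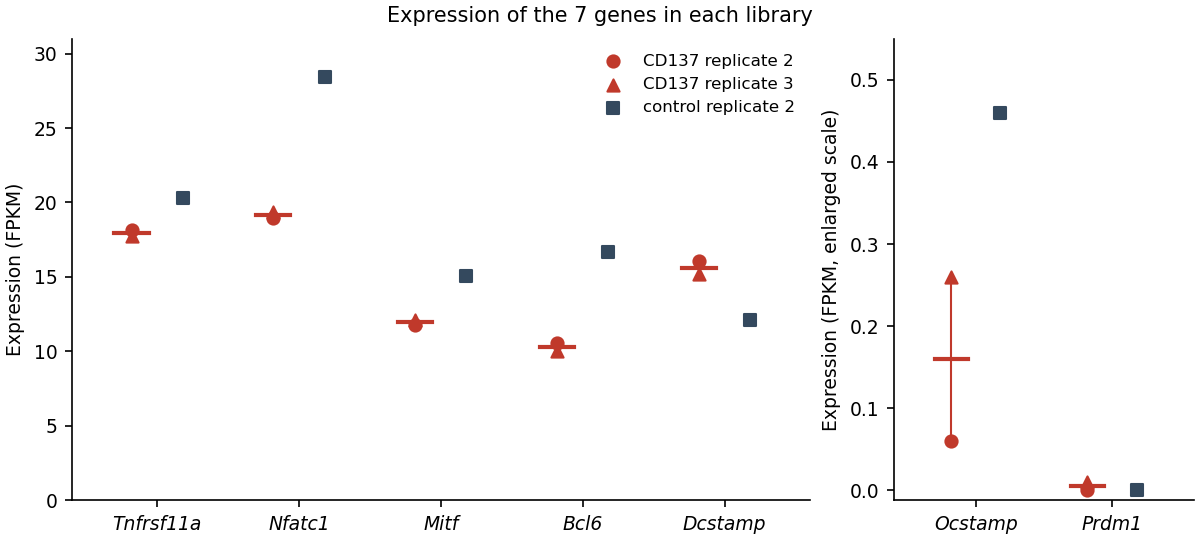
Expression in FPKM of the 7 genes, with CD137 replicates 2 and 3 in red (circle and triangle, a horizontal bar at their mean and a thin line joining them) and control replicate 2 as a dark square; the right panel has an enlarged scale. Nfatc1, at 18.9 and 19.4 FPKM in CD137 cells against 28.4 FPKM in control cells, shows the largest gap in FPKM, and Dcstamp alone lies higher in CD137 than in control cells among the 5 genes on the left.

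Tnfrsf11a encodes RANK, the receptor through which precursors receive the signal to become osteoclasts. It lies on the plus strand of chromosome 1 (mm10, 105780723 to 105847981, Entrez ID 21934) with 2 annotated transcripts. Tnfrsf11a was at 18.2 and 17.8 FPKM in CD137 replicates 2 and 3, against 20.3 FPKM in the control library. Both CD137 libraries lay below the control, by 2.12 FPKM or more, and differed from each other by 0.4 FPKM. The mean of 17.9 ± 0.283 FPKM (SD, n = 2) in CD137 cells was 0.886 times the control value. The log2 fold change was -0.17 ± 0.054 (SE, 95% interval -0.31 to -0.03), with an adjusted p of 0.0602 by limma, so the difference did not pass. Relative to the control and corrected for depth, the fragment ratios were 0.885 (95% counting interval 0.827 to 0.947) in CD137 replicate 2 and 0.876 (0.819 to 0.938) in CD137 replicate 3, from 1591 and 1584 fragments in CD137 cells against 1830 in control cells. Counting error alone therefore did not cover the gap, but such intervals hold no variation between cultures. Tnfrsf11a passed in 3 of the 6 other settings that allow a test, with adjusted p between 0.0114 and 0.0471. The gap is also small for this comparison, since 55.1% of all genes fitted had a larger absolute fold change.

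Nfatc1 encodes NFATc1, the calcium-activated transcription factor that commits precursors to the osteoclast fate and amplifies its own gene once RANK is engaged. It is on the minus strand of chromosome 18 (mm10, 80606205 to 80713071, Entrez ID 18018) with 6 transcripts. Nfatc1 was at 18.9 and 19.4 FPKM in CD137 replicates 2 and 3, against 28.4 FPKM in the control library. The CD137 libraries were close to each other, and the gap of 9.05 FPKM between the control and the nearer of them was far wider than the 0.45 FPKM between them. With a mean of 19.2 ± 0.318 FPKM (SD, n = 2), Nfatc1 fell to 0.674 times the control value, a log2 fold change of -0.55 ± 0.052 (SE, 95% interval -0.68 to -0.41) with an adjusted p of 0.00227 by limma. Only 9.83% of the genes fitted had a larger absolute fold change. The fragments behind these values, 1514 and 1552 in CD137 cells against 2317 in control cells, gave ratios of 0.665 (95% counting interval 0.623 to 0.710) and 0.678 (0.635 to 0.723). In bulk RNA, fewer cells that express a gene and less of its RNA per cell cannot be told apart. The macrophage markers given above moved in both directions, 5 of 9 higher and 4 of 9 lower in CD137 cells, and their part in this result was not tested. The adjusted p was 0.0802 in the fit of all genes, where Nfatc1 did not pass.

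Within its own family, Nfatc1 was the gene that passed. It made up 24.1% and 25.8% of the summed FPKM of the 4 expressed NFAT genes in CD137 cells, against 31.8% in control cells. The family sum was 78.7 and 75.3 FPKM in CD137 cells and 89.3 FPKM in control cells. Nfatc2, a lymphocyte NFAT, was at 3.54 and 4.06 FPKM in CD137 cells against 3.94 FPKM in control cells (adjusted p 0.762, limma). Nfatc3 was at 17.0 and 15.9 FPKM in CD137 cells against 17.9 FPKM in control cells (adjusted p 0.199, limma). Nfat5, which answers osmotic stress and needs no calcineurin, was at 39.2 and 35.9 FPKM in CD137 cells against 39.0 FPKM in control cells (adjusted p 0.529, limma). Neither Nfatc2, Nfatc3 nor Nfat5 passed, and the difference between Nfatc1 and these relatives was not tested.

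Mitf encodes the microphthalmia-associated transcription factor, which in osteoclasts acts downstream of RANK on resorption genes such as Acp5 and Ctsk, and which is also the master regulator of melanocytes. It is on the plus strand of chromosome 6 (mm10, 97807002 to 98021360, Entrez ID 17342) with 14 transcripts, which the gene-level values do not tell apart. Mitf was at 11.8 and 12.1 FPKM in CD137 replicates 2 and 3, against 15.1 FPKM in the control library. Both CD137 values lay below the control with no overlap. The mean of 11.96 ± 0.247 FPKM (SD, n = 2) was 0.792 times the control value, and Mitf fell by 0.31 on the log2 scale (SE 0.06, 95% interval -0.47 to -0.16, adjusted p 0.0140 by limma). Fragments numbered 1011 and 1034 in CD137 cells against 1325 in control cells, with ratios of 0.776 (95% counting interval 0.715 to 0.843) and 0.790 (0.728 to 0.857). The size is moderate, since 28.8% of the genes fitted had a larger absolute fold change. Of the 6 melanocyte markers, Dct, Mlana, Sox10 and Tyrp1 were at 0 or had no value. The other two were low, Tyr at 0.59 and 0.65 FPKM in CD137 cells against 0.48 FPKM in control cells, and Pmel at 0.17 and 0.05 FPKM in CD137 cells against 0.06 FPKM in control cells. In the fit of all genes the adjusted p of Mitf was 0.0930.

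Mitf belongs to the MiT family with Tfe3 and Tfeb, which share its DNA-binding sites and act in lysosome biogenesis. Tfeb was at 11.2 and 11.1 FPKM in CD137 cells against 13.5 FPKM in control cells, and fell to 0.829 times the control (log2 fold change -0.25 ± 0.059 SE, adjusted p 0.0257 by limma). Tfe3 was at 30.0 and 31.5 FPKM in CD137 cells against 34.9 FPKM in control cells and narrowly missed the threshold (adjusted p 0.0505, limma). The family sum was 53.0 and 54.8 FPKM in CD137 cells against 63.4 FPKM in control cells. The share of Mitf in it was 22.2% and 22.1% in CD137 cells and 23.8% in control cells, so its share moved less than that of Nfatc1 in the NFAT family. Tfec, the remaining relative, had no value.

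Mitf has alternative first exons, and RefSeq gives it 3 separate promoter windows in GRCm38.p6, the assembly called mm10. Each window runs from 250 bases before an annotated start to 50 bases after it. The letters GGAAA, the core that NFAT proteins bind, the E-box letters CACGTG and CATGTG that MITF binds, and TGANTCA, the AP-1 site, were searched on both strands. The windows at Mitf starts 2 and 3 hold 1 NFAT core each and are shown because both Nfatc1 and Mitf fell; capitals mark the match, TTTCC being the core on the opposite strand, and no match shares a base with another. The window at start 1 holds none of these motifs, nor does that of Tnfrsf11a, and that of Prdm1 holds 1 AP-1 site and no NFAT core.
Mitf, start 2, chr6:97929567-97929866, plus strand: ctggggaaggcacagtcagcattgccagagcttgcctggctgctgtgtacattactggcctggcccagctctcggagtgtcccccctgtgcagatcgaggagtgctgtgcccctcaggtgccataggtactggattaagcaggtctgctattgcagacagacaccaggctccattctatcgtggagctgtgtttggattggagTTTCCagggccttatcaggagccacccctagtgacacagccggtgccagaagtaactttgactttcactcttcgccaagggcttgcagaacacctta
Mitf, start 3, chr6:97991533-97991832, plus strand: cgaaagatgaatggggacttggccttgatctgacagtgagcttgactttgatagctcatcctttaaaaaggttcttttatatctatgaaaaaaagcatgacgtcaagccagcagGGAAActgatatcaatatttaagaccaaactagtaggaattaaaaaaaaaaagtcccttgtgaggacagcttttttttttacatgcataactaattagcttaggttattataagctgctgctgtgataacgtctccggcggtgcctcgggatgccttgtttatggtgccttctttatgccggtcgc
The NFAT core is in 61.3% of all 32851 RefSeq promoter windows of the same length, and in 4 of the 7 windows read for these genes. These matches therefore describe the letters and do not show a bound site, and whether NFATc1 bears on Mitf was not tested.

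Bcl6 encodes a zinc-finger repressor that in mouse precursors sits on osteoclast genes, Nfatc1, Dcstamp and Ctsk among them, until Blimp-1 removes it. It is on the minus strand of chromosome 16 (mm10, 23965052 to 23988612, Entrez ID 12053) with 2 transcripts, and the predicted gene Gm37419, which overlaps it on the opposite strand, is not listed with a value. Bcl6 was at 10.56 and 10.04 FPKM in CD137 replicates 2 and 3, against 16.6 FPKM in the control library. The gap of 6.08 FPKM to the nearer CD137 library exceeded the 0.52 FPKM between the CD137 libraries. With a mean of 10.3 ± 0.368 FPKM (SD, n = 2), Bcl6 fell to 0.619 times the control value, a log2 fold change of -0.64 ± 0.064 (SE, 95% interval -0.81 to -0.48) and an adjusted p of 0.00253 by limma. Among the 5 genes fitted this was the largest absolute fold change, and 6.52% of all genes fitted had a larger one. Its fragments numbered 666 and 641 in CD137 cells against 1017 in control cells, with ratios of 0.666 (95% counting interval 0.603 to 0.735) and 0.638 (0.577 to 0.705). By fragments the fall was thus smaller than by FPKM, where the ratios of CD137 replicates 2 and 3 were 0.635 and 0.603. The fragment ratios of Nfatc1 in the same libraries were 0.665 and 0.678. The adjusted p in the fit of all genes was 0.0811.

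RefSeq gives Bcl6 a window at each of 2 starts, which are shown because the repressor and the NFAT gene fell together. Capitals mark the NFAT core and, in the first window, a CACGTG E-box, with the same motifs searched as for Mitf and no match sharing a base with another.
Bcl6, start 1, chr16:23988803-23989102, minus strand: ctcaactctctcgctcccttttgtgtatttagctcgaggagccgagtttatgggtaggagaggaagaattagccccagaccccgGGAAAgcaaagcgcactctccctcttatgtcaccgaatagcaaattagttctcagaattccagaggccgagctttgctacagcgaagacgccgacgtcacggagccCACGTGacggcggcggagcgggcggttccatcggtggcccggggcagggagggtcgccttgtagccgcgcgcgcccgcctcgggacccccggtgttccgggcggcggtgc
Bcl6, start 2, chr16:23981234-23981533, minus strand: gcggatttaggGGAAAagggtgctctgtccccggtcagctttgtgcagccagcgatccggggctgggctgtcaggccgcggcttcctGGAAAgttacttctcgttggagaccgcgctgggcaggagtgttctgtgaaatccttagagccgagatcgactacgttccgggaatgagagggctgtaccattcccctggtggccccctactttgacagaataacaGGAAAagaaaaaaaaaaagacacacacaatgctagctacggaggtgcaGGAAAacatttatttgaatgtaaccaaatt
The first window holds 1 NFAT core and 1 CACGTG, a motif found in 7.15% of all windows, and the second holds 4 NFAT cores. The NFAT core is in 61.3% of all windows. A match is a description of the letters, binding was not measured, and whether NFATc1 bears on Bcl6 was not tested.

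Prdm1 encodes Blimp-1, which represses Bcl6 and other brakes on osteoclast formation and is best known as the plasma cell regulator. It is on the minus strand of chromosome 10 (mm10, 44437174 to 44528560, Entrez ID 12142). Prdm1 was listed at 0 and 0.01 FPKM in CD137 replicates 2 and 3, and at 0 FPKM in the control library. These values correspond to 0 and 1 fragment in CD137 cells and 0 fragments in control cells, and a count of 0 allows up to 3.69 fragments by an exact Poisson interval. No level of Prdm1 could be told from 0 at this depth in either group, and no difference was detectable. Whether Prdm1 had a part in the difference in Bcl6 was not tested.

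**Figure D2:**
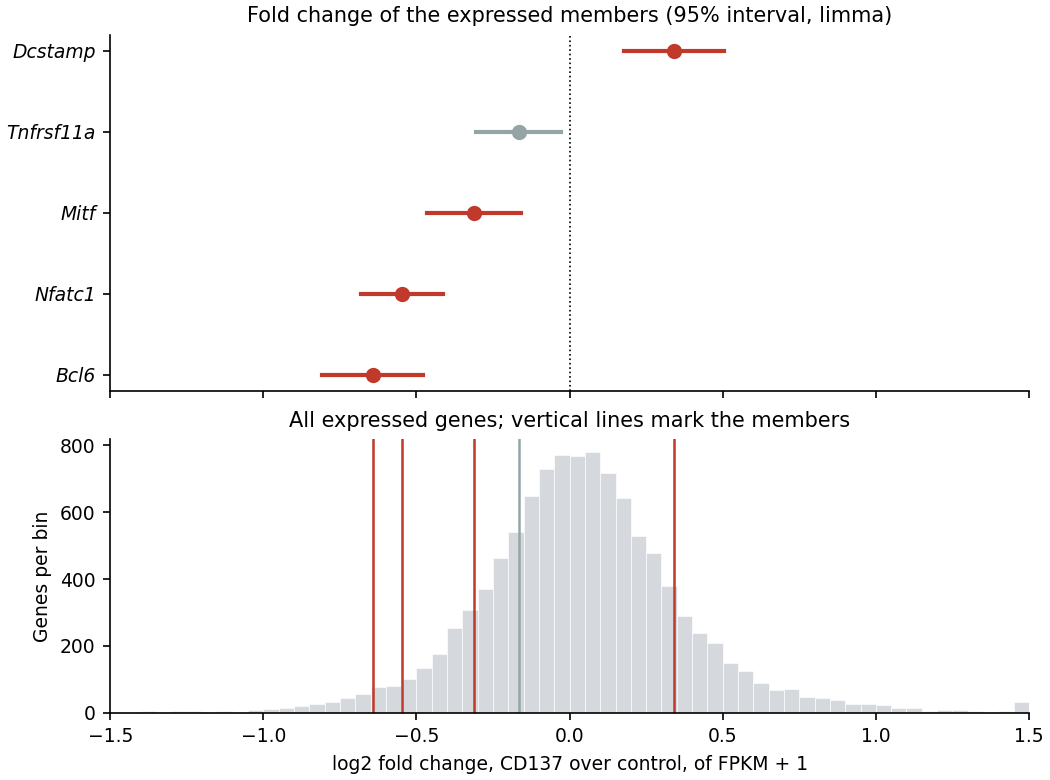
Upper panel, log2 fold change of FPKM + 1 (CD137 over control) of the 5 fitted genes with the 95% interval from limma, red where the adjusted p was under 0.05 and grey where not. Lower panel, a histogram of the same log2 fold change over all genes fitted with vertical lines at the 5 genes; 30 genes outside the range are counted in the outermost bins. Bcl6 at -0.64 and Nfatc1 at -0.55 lie in the lower tail, and Dcstamp at 0.34 lies on the other side.

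Dcstamp encodes DC-STAMP, a multi-pass membrane protein without which mouse osteoclast precursors fail to fuse. It lies on the plus strand of chromosome 15 (mm10, 39745930 to 39760938, Entrez ID 75766) with 6 transcripts. Dcstamp was at 16.04 and 15.21 FPKM in CD137 replicates 2 and 3, against 12.1 FPKM in the control library. Both CD137 libraries were above the control, and the gap of 3.09 FPKM to the nearer one was wider than the 0.83 FPKM between them. The mean of 15.6 ± 0.587 FPKM (SD, n = 2) was 1.29 times the control value, and Dcstamp rose with a log2 fold change of 0.34 ± 0.063 (SE, 95% interval 0.18 to 0.50) and an adjusted p of 0.0125 by limma. A larger absolute fold change was found for 25.1% of the genes fitted. The fragments, 544 and 511 in CD137 cells against 418 in control cells, gave ratios of 1.32 (95% counting interval 1.16 to 1.51) and 1.24 (1.09 to 1.41). Dcstamp was well above the limit of detection in the control cells too, where no RANK ligand is named. In the fit of all genes its adjusted p was 0.108.

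Ocstamp encodes OC-STAMP, a relative of DC-STAMP that is likewise needed for multinucleation in mouse. It is on the minus strand of chromosome 2 (mm10, 165395450 to 165400394, Entrez ID 74614) with 1 transcript. Ocstamp was at 0.06 and 0.26 FPKM in CD137 replicates 2 and 3, against 0.46 FPKM in the control library. It stayed under 1 FPKM in every library and so did not enter the fit. The values rest on 2 (exact 95% Poisson interval 0.24 to 7.22) and 9 (4.12 to 17.1) fragments in CD137 cells, against 16 (9.15 to 25.98) in control cells. The fragment ratio to the control was 0.127 (0.0142 to 0.541) in CD137 replicate 2 and 0.569 (0.222 to 1.37) in CD137 replicate 3, and the interval of the second includes 1. In the authors' deposited table the p-value of their Poisson test was 0.000831 for CD137 replicate 2 against the control, 0.178 for CD137 replicate 3 against the control and 0.0394 for CD137 replicate 3 against CD137 replicate 2. The fit of all genes gave a log2 fold change of -0.34 with an adjusted p of 0.307. CD137 replicate 2 was thus below the control beyond counting error and CD137 replicate 3 was not. The fragment ratio of CD137 replicate 3 to CD137 replicate 2 was 4.48 (95% counting interval 0.927 to 42.6), an interval that includes 1. The p of 0.0394 by the authors' Poisson test is unadjusted, so a difference between the CD137 libraries stayed unsettled. No difference between the groups was established.

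**Figure D3:**
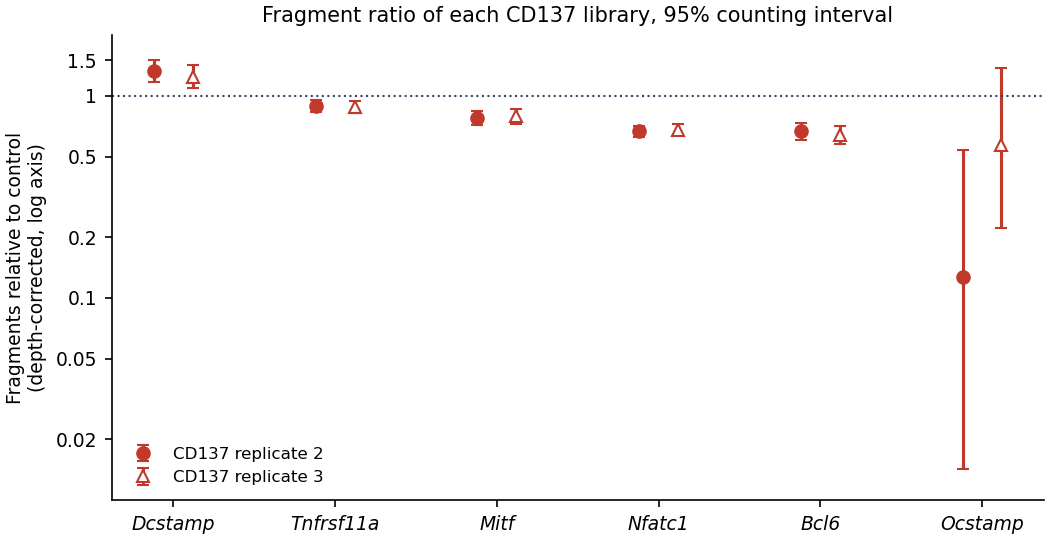
Fragments of each CD137 library relative to the control library, corrected for depth, on a log axis (filled circle, CD137 replicate 2; open triangle, CD137 replicate 3), with 95% intervals that cover counting error only and a dotted line at 1. The 2 CD137 libraries give like ratios for Dcstamp (1.32 and 1.24), Tnfrsf11a, Mitf, Nfatc1 and Bcl6, while those of Ocstamp (0.127 and 0.569) have wide intervals.

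In both CD137 libraries the order of the levels in FPKM was Nfatc1, Tnfrsf11a, Dcstamp, Mitf, Bcl6, Ocstamp and Prdm1, with no overlap between the listed values of neighbours. Counting error is left out of that order. With it, Nfatc1 and Tnfrsf11a overlap in CD137 replicate 2, and so do Ocstamp and Prdm1. The narrowest step among the 5 expressed genes was the 1.22 FPKM between the means of Nfatc1 and Tnfrsf11a. In the control library Nfatc1 and Tnfrsf11a came first as well. There Bcl6 followed, then Mitf, with overlapping counting intervals, and Dcstamp was the lowest of the 5 expressed genes. Dcstamp was therefore above Bcl6 and Mitf in CD137 cells and below both in control cells. The ratio of Dcstamp to Nfatc1 in FPKM was 0.847 and 0.784 in CD137 cells and 0.426 in control cells. The ratio of Nfatc1 to Tnfrsf11a was 1.04 and 1.09 in CD137 cells and 1.40 in control cells. By contrast the ratio of Nfatc1 to Bcl6 was 1.79 and 1.93 in CD137 cells and 1.71 in control cells, since both fell. These ratios follow from the values above and carry no further test. For the 5 expressed genes the authors' deposited table gave p-values between 0.272 and 0.788 for CD137 replicate 3 against CD137 replicate 2, which are the libraries whose epithelial markers differed. The log2 fold changes from CD137 replicate 3 alone were -0.18 for Tnfrsf11a, -0.53 for Nfatc1, -0.29 for Mitf, -0.68 for Bcl6 and 0.31 for Dcstamp.

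The rest of the pathway was described with 6 lists of genes grouped by textbook role, 105 genes in all, of which 89 were fitted. They are given by their counts and medians, beside 24.4% higher, 18.2% lower and a median log2 fold change of 0.03 over all genes fitted. The first list holds the ligand, decoy receptor, adaptors and kinases around RANK. Of its 17 fitted genes 5 rose, 1 fell and 11 did not pass, with a median log2 fold change of 0.10. Gab2, a scaffold that binds RANK, was at 14.9 and 14.9 FPKM in CD137 cells against 10.8 FPKM in control cells and rose to 1.38 times the control. Traf2, an adaptor of tumour necrosis factor receptors that CD137 also recruits, was at 12.4 and 13.2 FPKM in CD137 cells against 9.74 FPKM in control cells and rose to 1.31 times the control. The kinase gene Akt1 fell to 0.781 times the control, with 66.0 and 65.9 FPKM in CD137 cells against 84.4 FPKM in control cells. Traf6, the main adaptor of RANK itself, was at 9.22 and 9.48 FPKM in CD137 cells against 9.90 FPKM in control cells and did not pass (adjusted p 0.392, limma). Tnfsf11, which encodes RANK ligand, was at 0.03 and 0 FPKM in CD137 cells and 0 FPKM in control cells, with 1 fragment in all 3 libraries together. Tnfrsf11b, which encodes the decoy receptor osteoprotegerin, had no value.

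The second list follows the route from immunoreceptor tyrosine-based activation motifs (ITAM) through phospholipase C and calcium to calcineurin, the phosphatase that activates NFATc1. Of its 19 fitted genes 6 rose, 6 fell and 7 did not pass, and the median log2 fold change was -0.01. Blnk, an adaptor downstream of Syk, was at 12.1 and 12.7 FPKM in CD137 cells against 6.92 FPKM in control cells and rose to 1.79 times the control. Itpr2, an inositol trisphosphate receptor that releases calcium from the endoplasmic reticulum, was at 18.7 and 18.5 FPKM in CD137 cells against 12.5 FPKM in control cells and rose to 1.49 times. Its relative Itpr3 went the other way and fell to 0.705 times, with 13.1 and 13.5 FPKM in CD137 cells against 18.9 FPKM in control cells. The kinase gene Tec fell to 0.701 times, with 17.44 and 18.01 FPKM in CD137 cells against 25.3 FPKM in control cells.

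The third list holds the transcription factor partners of the NFAT, AP-1, NF-kB and MiT groups. Of its 19 fitted genes 6 rose, 2 fell and 11 did not pass, and the median was 0.09. Fos, the AP-1 subunit without which mouse precursors do not become osteoclasts, was at 8.93 and 8.56 FPKM in CD137 cells against 2.66 FPKM in control cells and rose to 3.29 times the control. Myc rose to 2.55 times, with 6.57 and 6.49 FPKM in CD137 cells against 2.56 FPKM in control cells. Jdp2, an AP-1 family gene that osteoclast formation in mouse requires, fell to 0.716 times, with 32.3 and 34.2 FPKM in CD137 cells against 46.5 FPKM in control cells, and Tfeb, described above, was the other gene that fell. The remaining 4 that rose were Nfkb2, Relb, Junb and Nfkb1, which are named after their values were seen. Nfkb2, the precursor of the alternative NF-kB pathway, was at 56.3 and 56.7 FPKM in CD137 cells against 22.9 FPKM in control cells, and its partner Relb was at 26.6 and 26.2 FPKM in CD137 cells against 11.7 FPKM in control cells.

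The next list holds other repressors of osteoclast formation. Of 9 fitted 2 rose, 2 fell and 5 did not pass, with a median of -0.17, and the shares of 22.2% rising and 22.2% falling are near those over all genes. Irf8, which restrains NFATc1, was at 21.1 and 21.4 FPKM in CD137 cells against 26.6 FPKM in control cells and fell to 0.799 times (adjusted p 0.00884, limma). Klf4, a Kruppel-like factor, fell to 0.745 times, with 6.10 and 5.28 FPKM in CD137 cells against 7.64 FPKM in control cells. Id2, an inhibitor of basic helix-loop-helix factors, rose to 1.68 times, with 11.2 and 12.2 FPKM in CD137 cells against 6.95 FPKM in control cells, and Rbpj, the Notch pathway factor, rose to 1.19 times.

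Among the other genes of macrophage and osteoclast fusion, 7 of 18 fitted rose, 2 fell and 9 did not pass, with a median of 0.12. Atp6v0d2, the proton pump subunit that with DC-STAMP is the best known fusion gene under NFATc1, was at 9.84 and 10.3 FPKM in CD137 cells against 4.00 FPKM in control cells. It rose to 2.52 times the control (adjusted p 0.00110, limma), from 442 and 466 fragments in CD137 cells against 183 in control cells. The ratio of Dcstamp to Atp6v0d2 in FPKM was accordingly 1.63 and 1.47 in CD137 cells and 3.03 in control cells. Cd47, a ligand of the SIRP-alpha receptor, rose to 1.43 times, with 59.5 and 59.1 FPKM in CD137 cells against 41.6 FPKM in control cells. Cd9, a tetraspanin, fell to 0.812 times, and Stat6, the factor behind interleukin-4-driven giant cells, fell to 0.859 times.

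The last list holds effector genes that NFATc1 and MITF activate in osteoclasts. Of its 7 fitted genes 4 rose, 2 fell and 1 did not pass, with a median of 0.27. Whether these values bear on the activity of NFATc1 or MITF was not tested. Mmp9, a matrix metalloproteinase, was at 4.79 and 5.14 FPKM in CD137 cells against 0.65 FPKM in control cells and rose to 7.64 times. It entered the fit through the CD137 libraries alone, and without it 3 of 6 genes rose, with a median of 0.19. Acp5, tartrate-resistant acid phosphatase, was at 4.95 and 4.66 FPKM in CD137 cells against 2.86 FPKM in control cells and rose to 1.68 times. Car2, carbonic anhydrase, fell to 0.789 times and Gpnmb, a MITF target, to 0.877 times. The osteoclast differentiation term of KEGG, as annotated in the deposited table, had 112 fitted genes, of which 40 rose, 18 fell and 54 did not pass, with a median of 0.12. Of the 105 list genes 48 are also among its 135 genes with a value, and it holds 3 of the 7 genes described here, so it is no separate count.

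**Figure D4:**
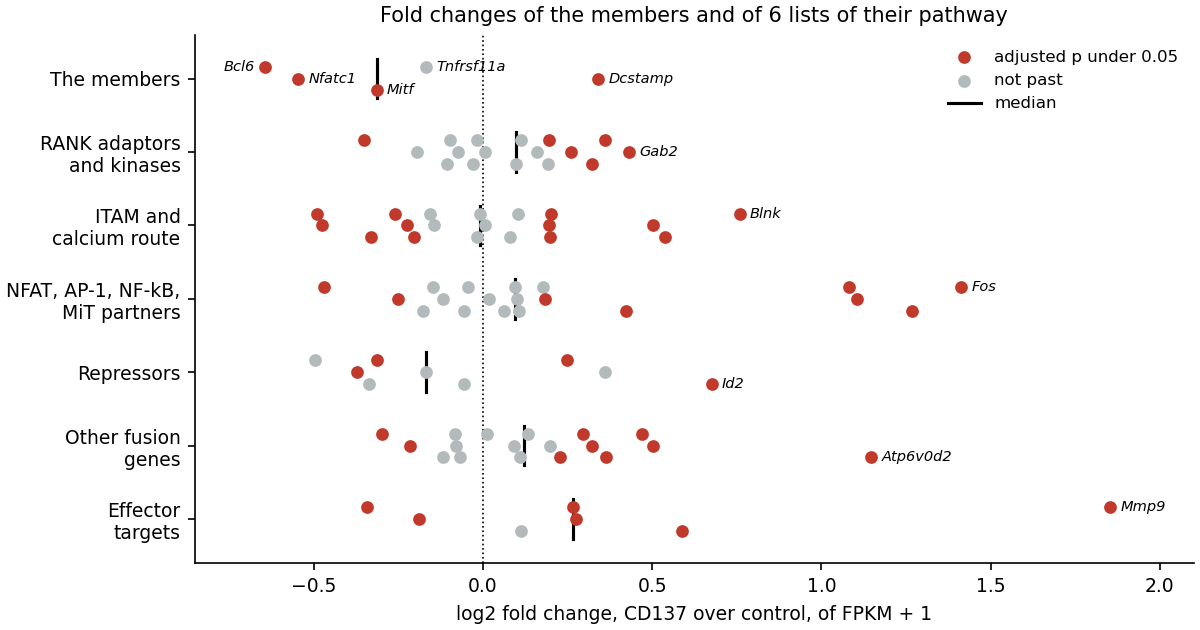
Log2 fold change of FPKM + 1 (CD137 over control), 1 point per fitted gene, for the 5 fitted members and the 6 lists, red where the adjusted p was under 0.05 in limma and grey where not, with a black bar at each median. Bcl6 at -0.64 and Nfatc1 at -0.55 lie lower than all 89 list genes, of which the lowest is Id3, a repressor list gene that did not pass, at -0.50, and Fos, Atp6v0d2 and Mmp9 lie farthest to the right of their lists.

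To see which of the 89 fitted list genes most resembled each regulator, the log2 ratios of both CD137 libraries to the control were compared by Euclidean distance, over 3 libraries. Nfatc1 was nearest to Tec at a distance of 0.0793 and then to Itpr3 at 0.101, with 135 and 195 expressed genes of the whole table at least as near. Bcl6 had the same nearest genes at larger distances, 0.23 and 0.25, with 405 and 443 expressed genes as near. Mitf was nearest to Irf8 at 0.013 and then Cd9 at 0.0537, with 18 and 219 genes as near. Tnfrsf11a was nearest to Zbtb7a at 0.0048 and then Creb1 at 0.031, with 2 and 143 genes as near, and Dcstamp to Snx10 and Myo10, both fusion list genes, at 0.036 and 0.0371. For Dcstamp 71 and 76 expressed genes lay as near as these, so the likeness is one of size and is shared with many genes.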

How the data were processed

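Libraries were made with oligo-dT beads, per the labels' protocols. Groups and replicate numbers come from the titles. The FPKM values were deposited by the authors, 1 per gene and library, per the file headers. Per the submitters' processing notes, HISAT2, Bowtie2, RSEM and the build mm10 were used, with no roles given; strandedness is not given in the sources used here, so reads of a gene and of an antisense partner cannot be told apart. The authors also deposited, for each pair of libraries, a log2 ratio, the p-value of a Poisson test, and an adjusted p-value treated as a score because it exceeds 1 for some genes. One broken line was left out. Replicate 1 of either group was not analysed here.

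A linear model with empirical Bayes and a variance trend (limma 3.58.1, R 4.3.3) was fitted to log2(FPKM + 1) of genes that reached 1 FPKM in any library, with 1 residual degree of freedom, Benjamini-Hochberg adjustment and a threshold of 0.05. Adding 1 understates fold changes of low genes. Ratios to the control are of FPKM itself. Fragments were solved with scipy 1.17.1 as the whole numbers that give the deposited p-values and FPKM at 1 relative depth per library. Where no whole numbers fitted, the match to FPKM was loosened by a few percent, except for genes with the most fragments. The match to the p-values was kept. In all, 91.6% of genes with a value had a unique solution, all 7 members among them. Intervals from fragments are 95% exact Poisson intervals, or exact binomial for ratios, and cover counting error only, so the depth limits low genes most. Both steps were tested on simulated data. Promoter windows come from RefSeq, GRCm38.p6, and were read for 4 of the 7 genes.

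Members and lists were chosen with earlier results of these data known. From each list the text names the 2 genes with the largest increase and the 2 with the largest decrease in FPKM ratio among those past the threshold, and direct partners whatever they did; some results are not reported here. Alternatives were another expression limit or none, another pseudocount, rescaling, no trend, limma-voom on fragments, and leaving out a CD137 replicate.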

Additional observations from a re-analysis of the deposited data

How the results depend on the processing

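No direction of the 5 fitted regulators turned under any alternative tried. With all 16003 genes in the fit, 0 genes passed in limma, with 5281 at an unadjusted p under 0.05, against 4563 in the fit of expressed genes. There Nfatc1 (log2 fold change -0.55, adjusted p 0.0802), Mitf (-0.31, 0.0930), Bcl6 (-0.64, 0.0811) and Dcstamp (0.34, 0.108) missed the threshold; the smallest adjusted p over all genes was 0.0802, and the cause was not tested. Those 4 genes passed in 5 of 6 alternatives with a test. Tnfrsf11a passed with a limit of 5 FPKM (-0.17, 0.0471), with FPKM rescaled to a median ratio of 1 (-0.20, 0.0293) and with limma-voom on fragments (-0.18, 0.0114). Rescaling removes median shifts of 0.035 and 0.032 on the log2 scale. It moved the genes that fell in the RANK list to 2 and in the transcription factor list to 4. Over the limit of 5 FPKM, the other pseudocount and rescaling, the alternatives under which list counts were run, 34 of 36 list counts stayed within 1.5 times. In the fit of all genes no list gene passed. Leaving out a CD137 replicate leaves no test, and the log2 fold changes ranged from -0.18 to -0.15 for Tnfrsf11a, from -0.56 to -0.53 for Nfatc1, from -0.33 to -0.29 for Mitf, from -0.68 to -0.61 for Bcl6 and from 0.31 to 0.38 for Dcstamp. No paired analysis was possible because the columns of the table share only replicate number 2. Depth limits Ocstamp and Prdm1, with 16 fragments or fewer in every library.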

Other observations

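Of the list genes, 12 were under 1 FPKM in every library and entered no count. By fragments, 7 of them were higher in both CD137 libraries than in the control. The other 5, Tnfsf11, Camk4, Fosl1, Pparg and Hes1, were not on one side of it in both. How often all genes under 1 FPKM lay on one side of the control was not counted. The 7 are therefore described only, and are not set apart from other low genes. The genes described here were chosen after their values were seen. Ctsk, which encodes the collagen-degrading protease cathepsin K, had 22 and 22 fragments in CD137 cells against 2 in control cells. Itgb3, the integrin chain that anchors osteoclasts to bone, had 16 and 22 fragments in CD137 cells against 3 in control cells. Src, the kinase gene that mouse osteoclasts need to resorb bone, had 24 and 15 fragments in CD137 cells against 2 in control cells. Oscar, an ITAM-coupled receptor gene, had 4 and 4 fragments in CD137 cells against 0 in control cells. Siglec15, a receptor gene of osteoclast fusion, had 25 and 19 fragments in CD137 cells against 11 in control cells. The remaining ones of the 7 were Bach2, a repressor of osteoclast formation, with 58 and 41 fragments in CD137 cells against 25 in control cells, and Irf4, with 51 and 54 fragments in CD137 cells against 47 in control cells. No test was made.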
